A study of Mus musculus with 11 samples.

Results

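The genes described here are 9 genes of endothelial cell junctions, taken by symbol from the 32285 genes of the count matrices: Cldn5, Ocln, Lsr, Cldn12, Tjp1, Cgn, F11r, Esam and Cdh5. Their UMIs, the distinct RNA molecules counted per cell, were summed for each mouse and each cell type defined by other marker genes, and the sums were compared over 4 groups. The sham + WT group held 3 mice (replicates 1, 2 and 3), the MCAO/R + WT group 2 (replicates 1 and 2), the sham + Lrg1-/- group 3 (replicates 1, 2 and 5) and the MCAO/R + Lrg1-/- group 3 (replicates 1, 2 and 5). MCAO/R is middle cerebral artery occlusion, here for 1 h, followed by reperfusion, a model of ischemic stroke, and Lrg1 encodes a secreted glycoprotein of inflamed and growing vessels. Wild-type mice were male C57BL/6 of 8 to 10 weeks from a university breeder. Lrg1-/- mice came from a commercial supplier, were used at 3 months after 4 generations of backcrossing, and lacked the gene in the whole body, from exon 1 to the stop codon. Their substrain is given as both C57BL/6J and C57BL/6N, so that genotype, age, source and substrain cannot be told apart. Other mice were reperfused for 1 to 24 h, and whether the 1 h named for the sequenced tissue is the occlusion or the reperfusion is not clear. The right brain was digested with enzymes at 37 °C, red blood cells were lysed, and each mouse gave 1 library of the 10x Genomics 3′ kit.

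The endothelial cells of brain vessels seal the gaps between them with tight junctions, which keep blood solutes out of the brain. Claudins and occludin span the membrane and meet their partners on the next cell, lipolysis-stimulated lipoprotein receptor (Lsr, angulin-1) marks the corners where several cells meet, and plaque proteins such as ZO-1 (Tjp1) and cingulin (Cgn) tie these strands to actin. JAM-A (F11r) and ESAM (Esam) are immunoglobulin-like adhesion molecules of the same contacts, and VE-cadherin (Cdh5) holds the adherens junction below them. In stroke, loss of this seal is known to let fluid and blood cells into the tissue.

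Endothelial cells numbered 16602 of 124491 cells kept, between 302 and 2835 per library, with 4269129 to 34049964 endothelial UMIs and a median of 6147 to 13298 UMIs per cell. All 12 endothelial marker genes were detected in them, none of which is a junction gene described here. Endothelial Lrg1 was 7.78, 23.1 and 7.66 CPM (UMI counts scaled to the same total in every library and cell type) in sham + WT mice and 453 and 545 CPM in MCAO/R + WT mice, and no Lrg1 UMI was found in any of the 6 Lrg1-/- libraries. Several measures of the endothelial sums moved with genotype. The summed red blood cell markers were 16000 to 20400 CPM in Lrg1-/- libraries and 430 to 1610 CPM in WT libraries, the choroid plexus markers 2090 to 4650 against 160 to 630 CPM, and the share of UMIs from genes spanning over 100 kb was 14.6 to 17.4% against 20.2 to 21.7%. Microglia markers were 469 to 732 CPM in Lrg1-/- and 211 to 397 CPM in WT libraries, and pericyte markers 107 to 136 CPM in MCAO/R + WT mice and 65.8 to 88.3 CPM in the others. The summed endothelial markers were 17990 to 19590 CPM in sham + Lrg1-/- mice and 21570 to 22910 CPM in sham + WT mice. After MCAO/R they were 14570 to 17150 CPM in Lrg1-/- mice and 17510 to 19680 CPM in WT mice. The part of all these markers in the results below was not tested. In 4 of the 6 Lrg1-/- libraries the number of barcodes was a round number (15500, 9000, 5650 and 8500). In the WT libraries it was 15699, 10590, 10172, 10606 and 13135.

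Of the 9 genes, 8 passed the filter on low counts in endothelial cells and Cgn did not. Calls rest on edgeR's quasi-likelihood test over the 16202 genes tested, with an adjusted p (Benjamini-Hochberg) under 0.05 and a change of more than 0.25 on the natural log scale in either direction, which is 0.361 on the log2 scale. From sham to MCAO/R, 2 of 8 were called in WT mice, where 21.6% of all genes tested were, and 3 of 8 in Lrg1-/- mice, where 22.3% were. Between genotypes after MCAO/R, 2 of 8 were called beside 26.2% of all genes tested. Between genotypes after sham surgery the count was 0 of 8 beside 15.3%, with 3 at an unadjusted p below 0.05 and none by DESeq2. For the difference between the genotypes' responses the count was 0 of 8 beside 3.24%, with 1 at an unadjusted p below 0.05 and 1, Tjp1, by DESeq2. Against these shares the counts are no result about the junction genes as a group. The median log2 fold change of the 8 genes was -0.06, -0.09, -0.06 and -0.05 in these 4 comparisons, and 0.02, 0.01, 0.01 and 0.01 over all genes tested.

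Groups of 2 or 3 mice separate often in these sums. Ranges that did not overlap were found for 3 of the 8 genes from sham to MCAO/R in WT mice, where 56% of all genes tested did not overlap, and for 4 of 8 in Lrg1-/- mice, where 34.9% did not. Between genotypes they were found for 5 of 8 after sham surgery (40.5% of all genes) and 2 of 8 after MCAO/R (48%). The p-values measure the spread between these mice, and the MCAO/R comparisons share mice with the genotype comparisons.

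**Figure D1:**
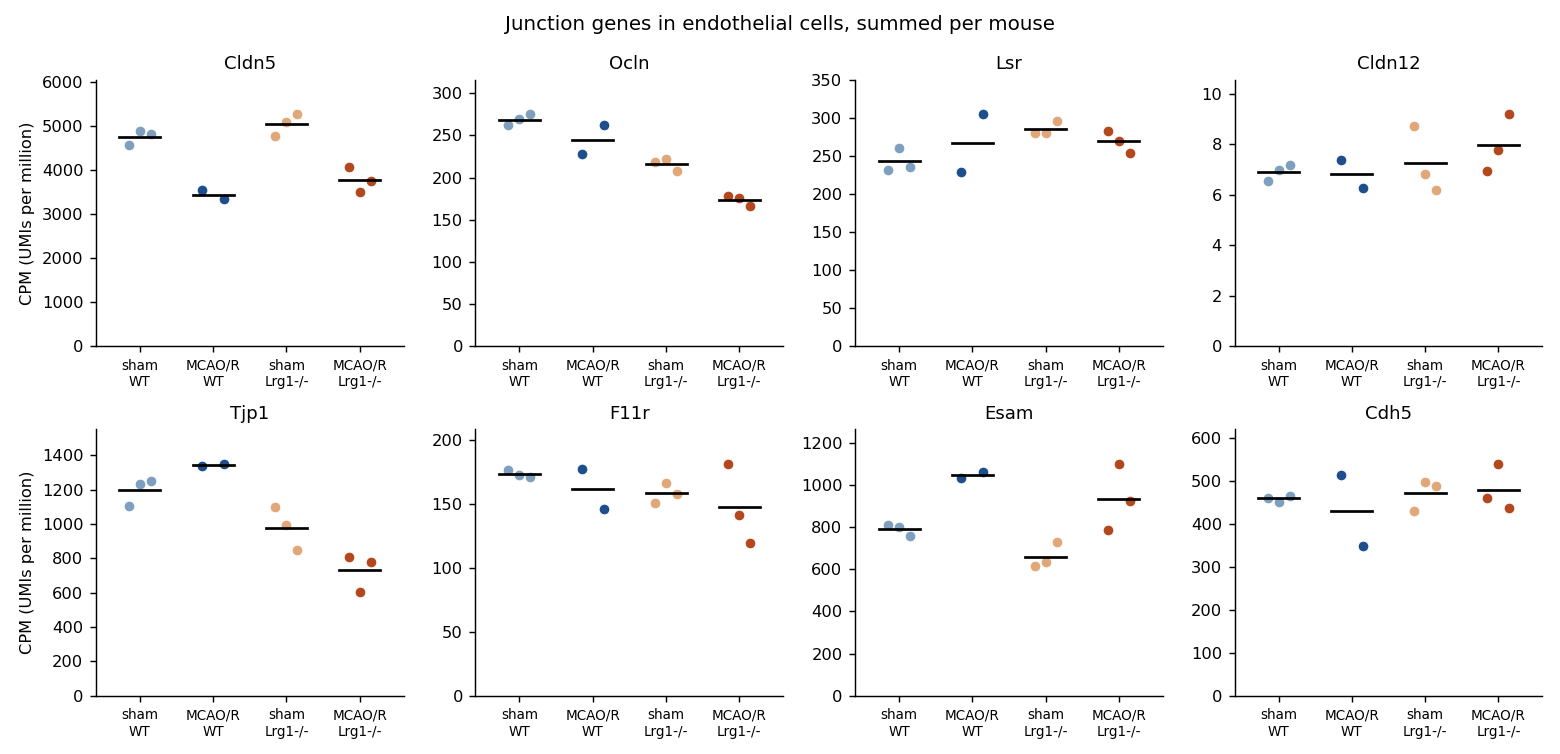
Levels of 8 junction genes in endothelial cells, in CPM (vertical axes from 0), with 1 point per mouse and the group mean as a line, for the sham and MCAO/R groups of WT and Lrg1-/- mice. Cldn5 was lower in both MCAO/R groups than in either sham group, and Tjp1 was lowest in MCAO/R + Lrg1-/- mice, at 606 to 809 CPM.

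**Figure D2:**
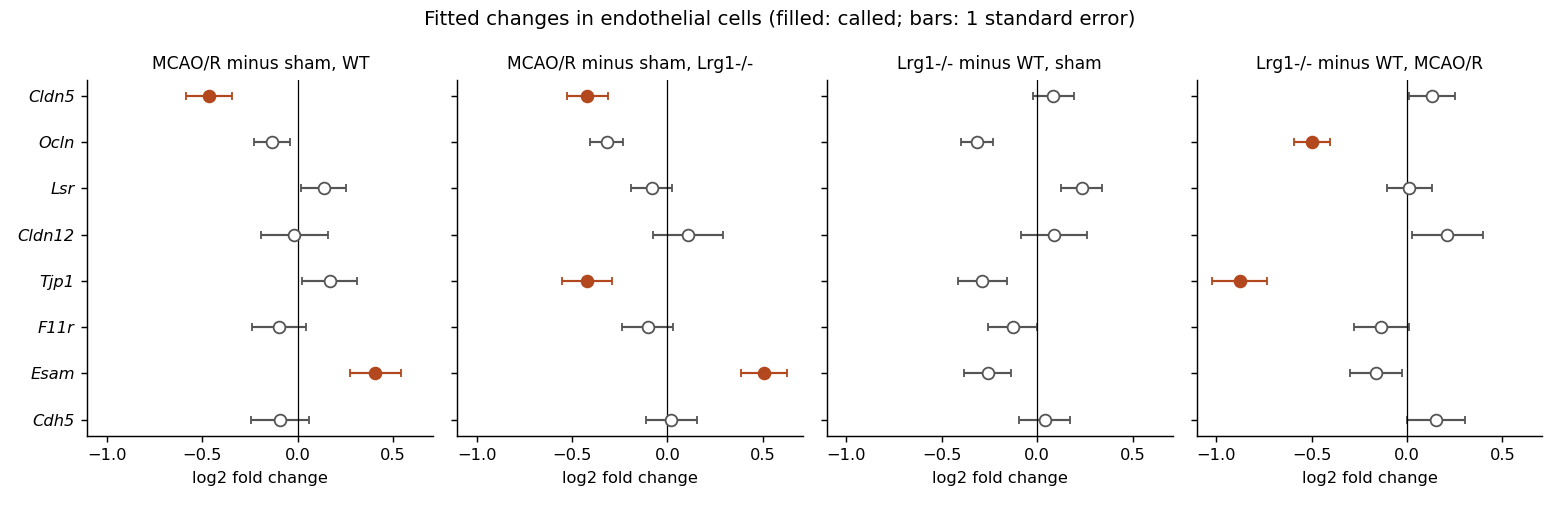
Log2 fold changes of the same 8 genes fitted with edgeR in endothelial cells (points, bars 1 standard error) in 4 comparisons, with called genes filled. Cldn5 lay near -0.4 to -0.5 from sham to MCAO/R in both genotypes, and Tjp1 and Ocln were the called genes between genotypes after MCAO/R, at -0.88 and -0.50.

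The start regions are shown for the 3 genes that passed the test in at least 1 comparison and had a matched RefSeq entry, because the results below turn on these genes. Esam also passed but had no matched entry. In the GENCODE M21 annotation of mm10, Cldn5 (ENSMUSG00000041378) spans 1416 bases at chr16:18776847-18778262 on the plus strand, Ocln (ENSMUSG00000021638) spans 56212 bases at chr13:100496507-100552718 on the minus strand, and Tjp1 (ENSMUSG00000030516) spans 231617 bases at chr7:65296165-65527781 on the minus strand. Tjp1 overlaps 2 annotated genes on its own strand, and reads shared with them cannot be assigned with certainty. The 250 bases before the RefSeq start are given 5′ to 3′ in gene direction (GRCm38.p6), from chr16:18776597-18776846 (plus), chr13:100552719-100552968 (minus) and chr7:65371245-65371494 (minus). The Tjp1 start is that of a shorter transcript inside the annotated gene. Capitals mark the GC box, GGGCGG or its reverse complement CCGCCC, of which Tjp1 holds 2 and the others 1 each.
Cldn5: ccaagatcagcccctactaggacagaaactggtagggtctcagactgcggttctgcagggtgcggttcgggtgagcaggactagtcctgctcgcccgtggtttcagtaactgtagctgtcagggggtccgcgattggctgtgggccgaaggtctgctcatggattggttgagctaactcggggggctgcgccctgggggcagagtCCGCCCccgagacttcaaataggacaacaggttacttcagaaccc
Ocln: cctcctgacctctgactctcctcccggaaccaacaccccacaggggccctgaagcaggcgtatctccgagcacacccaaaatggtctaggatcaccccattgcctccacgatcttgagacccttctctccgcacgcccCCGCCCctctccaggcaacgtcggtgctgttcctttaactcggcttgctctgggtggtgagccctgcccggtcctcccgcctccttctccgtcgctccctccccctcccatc
Tjp1: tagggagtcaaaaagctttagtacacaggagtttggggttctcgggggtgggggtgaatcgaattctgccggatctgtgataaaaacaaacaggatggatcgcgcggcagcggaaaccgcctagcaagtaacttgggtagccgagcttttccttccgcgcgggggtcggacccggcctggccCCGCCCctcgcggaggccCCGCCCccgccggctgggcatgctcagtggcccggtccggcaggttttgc
RefSeq entries were matched for 7 of the 9 genes, with 10 start sites in all. The GC box was found on either strand in 9 of the 10 entries and in 32.7% of the 32851 mouse entries. The SMAD box CAGAC stood in 3 of 10 (42.2% of all), the E-box CACCTG in 3 (17.2%) and the TCF/LEF motif CTTTGA in 1 (13.8%). These are matches of letters and not sites of binding.

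Cldn5, the main claudin of brain endothelium, was lower after MCAO/R in both genotypes and did not pass the test between genotypes. Its endothelial level was 4571, 4887 and 4828 CPM in sham + WT mice and 3558 and 3338 CPM in MCAO/R + WT mice. It was 4776, 5102 and 5272 CPM in sham + Lrg1-/- mice and 4065, 3516 and 3749 CPM in MCAO/R + Lrg1-/- mice. Every MCAO/R mouse lay below every sham mouse. Cldn5 fell by 27.6% in WT mice (log2 fold change -0.47 ± 0.12 (SE), edgeR adjusted p = 0.0144) and by 25.2% in Lrg1-/- mice (-0.42 ± 0.11, edgeR adjusted p = 0.0134). The summed 12 endothelial markers were also lower after MCAO/R, at 17510 to 19680 CPM against 21570 to 22910 CPM in WT mice and at 14570 to 17150 CPM against 17990 to 19590 CPM in Lrg1-/- mice, and their part in the fall of Cldn5 was not tested. Between genotypes the log2 difference was 0.13 after MCAO/R (edgeR adjusted p = 0.452) and 0.08 after sham surgery (0.646), which turned to -0.10 (0.565) and -0.13 (0.489) with the trend of level on gene span removed, and the responses of the genotypes differed by 0.05 ± 0.16. In capillary-like cells alone the fall was -0.53 (edgeR adjusted p = 0.00396) in WT and -0.43 (0.00961) in Lrg1-/- mice. The call in WT mice was lost without sham + WT replicate 2 (edgeR adjusted p = 0.055), sham + WT replicate 3 (0.059) or MCAO/R + WT replicate 2 (0.083), and in Lrg1-/- mice without sham + Lrg1-/- replicate 2 (0.0571). With the replicate block the adjusted p was 0.152 in WT and 0.087 in Lrg1-/- mice. In Lrg1-/- mice the Cldn5 call was made in 19 of 23 alternative settings. It was also lost there with only the groups compared and with a gate on endothelial markers described below.

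The 5 genes whose endothelial pattern lay nearest to that of Cldn5 over the 11 libraries were Cpd, Pgrmc2, Rfc1, Ostf1 and Mff, out of 6804 genes of at least 20 CPM. The root mean square difference in centred log2(CPM + 1) was 0.0622 for Cpd, a membrane carboxypeptidase, and 0.0826 for Mff, a factor of mitochondrial fission. Cpd averaged 168, 120, 179 and 143 CPM in the sham + WT, MCAO/R + WT, sham + Lrg1-/- and MCAO/R + Lrg1-/- groups.

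Ocln, which encodes occludin, was lower in Lrg1-/- mice than in WT mice after MCAO/R. It stood at 262, 269 and 275 CPM in sham + WT mice and at 228 and 262 CPM in MCAO/R + WT mice. In Lrg1-/- mice it stood at 218, 222 and 208 CPM after sham surgery and at 179, 175 and 166 CPM after MCAO/R. All 6 Lrg1-/- mice lay below all 5 WT mice, and in Lrg1-/- mice the MCAO/R values lay below the sham values, while in WT mice the groups overlapped. After MCAO/R, Ocln differed by -29.2% in Lrg1-/- from WT mice (log2 -0.50 ± 0.09, edgeR adjusted p = 0.00195), and this call was kept without any single library. After sham surgery the difference of -0.31 (edgeR adjusted p = 0.0228) stayed under the fold limit, as did the change with MCAO/R in Lrg1-/- mice (-0.32, 0.016). In WT mice the change was -0.13 (0.332). Among capillary-like cells the difference after MCAO/R was -0.44 (edgeR adjusted p = 0.0144), and the change with MCAO/R in Lrg1-/- mice was 0.00 (0.995). With the trend of level on gene span removed, the difference after MCAO/R was -0.34 (0.0126), under the fold limit.

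Lsr, the angulin of endothelial tricellular contacts, did not pass the test in any comparison. Its level was 232, 261 and 236 CPM in sham + WT mice, 229 and 305 CPM in MCAO/R + WT mice, 280, 281 and 296 CPM in sham + Lrg1-/- mice and 283, 270 and 254.5 CPM in MCAO/R + Lrg1-/- mice. The sham + Lrg1-/- mice lay above the sham + WT mice (log2 0.23, edgeR adjusted p = 0.164), and the MCAO/R groups overlapped with their sham groups. The 2 MCAO/R + WT mice held the lowest and the highest level of the 11, and in capillary-like cells the change with MCAO/R in WT mice was 0.39 (edgeR adjusted p = 0.0542), against 0.14 in all endothelial cells. Cldn12, a claudin without the usual binding end for ZO-1, was measured from 26 to 254 UMIs per library. Its levels of 6.16 to 9.17 CPM overlapped between all groups, and the log2 fold changes of the 4 comparisons ranged from -0.02 to 0.21. With cells thinned to 1000 UMIs the difference between genotypes after MCAO/R was 1.05 (edgeR adjusted p = 0.0658) and the change with MCAO/R in Lrg1-/- mice 0.88 (0.214), neither of which passed, and 1.13 to 1.66% of thinned cells had a Cldn12 UMI in MCAO/R + Lrg1-/- and 0.517 to 0.606% in MCAO/R + WT mice.

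Tjp1, which encodes the scaffold ZO-1, had the widest genotype difference of the junction genes after MCAO/R with all UMIs counted. Its level was 1104, 1234 and 1248 CPM in sham + WT mice and 1335 and 1348 CPM in MCAO/R + WT mice. In Lrg1-/- mice it was 1097, 992.7 and 846 CPM after sham surgery and 809, 606 and 779 CPM after MCAO/R. Both MCAO/R + WT mice lay above every sham + WT mouse, and all 3 MCAO/R + Lrg1-/- mice lay below every sham + Lrg1-/- mouse. After MCAO/R, Tjp1 differed by -45.6% in Lrg1-/- from WT mice (log2 -0.88 ± 0.14, edgeR adjusted p = 0.000833). This call held under all 23 alternatives, with differences from -1.275 to -0.62, and without each library in turn it ranged from -0.98 to -0.75. After sham surgery the difference was -0.29 (edgeR adjusted p = 0.153), which did not pass. With MCAO/R, Tjp1 fell by 25.4% in Lrg1-/- mice (-0.42 ± 0.13, edgeR adjusted p = 0.0312) with a difference of 0.17 ± 0.14 in WT mice (0.449). Such opposite, separate ranges in the genotypes were found for 2.43% of all genes tested. The responses differed by -0.59 ± 0.19 (edgeR adjusted p = 0.118), which did not pass with edgeR and passed with DESeq2 (adjusted p = 0.0368).

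The Tjp1 values were not the same under every setting. Among capillary-like cells alone, the Tjp1 difference between MCAO/R and sham was -0.16 in Lrg1-/- mice (edgeR adjusted p = 0.436) and 0.14 in WT mice (0.543), while that between genotypes after MCAO/R was -0.62 (0.00713). The fall in Lrg1-/- mice was also lost without MCAO/R + Lrg1-/- replicate 2 (-0.30, edgeR adjusted p = 0.121), sham + Lrg1-/- replicate 1 (0.0964) or sham + Lrg1-/- replicate 2 (0.0969), and with the replicate block (0.094). Tjp1 is a gene over 100 kb. The median log2 difference of the 2281 such genes between genotypes was -0.19 after MCAO/R and -0.23 after sham surgery. With the trend on gene span removed, the Tjp1 difference was -0.62 (edgeR adjusted p = 0.00363) after MCAO/R and 0.05 (0.813) after sham surgery, and the responses of the genotypes differed by -0.67 (0.045). Cgn, the cingulin gene, gave 17 UMIs in all endothelial cells together, with at most 8 in a library and none in 6 libraries, and was not tested.

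Esam, an adhesion molecule of endothelium and platelets, was higher after MCAO/R in both genotypes. Its level was 811, 798 and 757 CPM in sham + WT mice and 1032 and 1059 CPM in MCAO/R + WT mice, 616, 634 and 727 CPM in sham + Lrg1-/- mice and 785, 1098 and 921 CPM in MCAO/R + Lrg1-/- mice. Within each genotype every MCAO/R mouse lay above every sham mouse. Esam rose by 32.5% in WT mice (log2 0.41 ± 0.13, edgeR adjusted p = 0.0454) and by 42.0% in Lrg1-/- mice (0.51 ± 0.12, edgeR adjusted p = 0.00985). The WT call lies at the limit. Of the 11 fits that left out a library, it passed without MCAO/R + Lrg1-/- replicate 1 or 2, and without any one of the other 9 libraries the edgeR adjusted p was 0.0506 to 0.148. With the replicate block the WT adjusted p was 0.2. The call in Lrg1-/- mice was lost without sham + Lrg1-/- replicate 1 (0.0557). Between genotypes the difference was -0.16 after MCAO/R (edgeR adjusted p = 0.407) and -0.26 after sham surgery (0.17).

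F11r, the gene of JAM-A, was 176, 173 and 171 CPM in sham + WT mice, 178 and 146 CPM in MCAO/R + WT mice, 151, 166.5 and 158 CPM in sham + Lrg1-/- mice and 181, 142 and 119 CPM in MCAO/R + Lrg1-/- mice. The sham + Lrg1-/- mice lay below the sham + WT mice and the MCAO/R groups overlapped with the rest. Its log2 fold changes of -0.10, -0.10, -0.14 and -0.13 in the 4 comparisons did not pass. Cdh5, the adherens junction cadherin, was 461, 452 and 466 CPM in sham + WT mice, 513 and 349 CPM in MCAO/R + WT mice, 430, 497 and 489 CPM in sham + Lrg1-/- mice and 460, 539 and 436 CPM in MCAO/R + Lrg1-/- mice. The 2 MCAO/R + WT mice lay on either side of all sham + WT mice. Its log2 fold change was -0.09 ± 0.15 with MCAO/R in WT mice, 0.02 ± 0.13 in Lrg1-/- mice and 0.15 ± 0.15 between genotypes after MCAO/R.

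The share of endothelial cells with at least 1 UMI of a gene was compared between groups. With every cell thinned to 1000 UMIs, Tjp1 was found in 59.9 to 65.4% of cells in sham + WT mice, 64.0 to 66.0% in MCAO/R + WT mice, 52.5 to 61.6% in sham + Lrg1-/- mice and 42.1 to 51.0% in MCAO/R + Lrg1-/- mice (91.9 to 98.0% unthinned). Esam was found in 54.0 to 55.7% and 64.1 to 66.5% of cells in the WT groups and in 42.4 to 48.1% and 53.3 to 63.7% in the Lrg1-/- groups. Ocln, whose sums in Lrg1-/- mice were lower after MCAO/R without overlap, was found in 16.4 to 20.8% of thinned cells after sham surgery and in 17.4 to 22.2% after MCAO/R there, so that these shares overlapped. The share for Cldn5 lay between 91.1 and 96.8% in every library, against 98.2 to 99.7% unthinned. Microglia, which should lack Cldn5, had a Cldn5 UMI in 2.33 to 10.2% of thinned cells (21.3 to 62.9% unthinned), at median depths of 4232.5 to 15447 UMIs. The Tjp1 share in microglia was 9.59 to 19.7% and that of F11r 10.7 to 26%, while F11r in endothelial cells was at 10.9 to 17.4%, so that an F11r UMI does not set endothelial cells apart.

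The endothelial cells were divided into zones by markers of capillary, arterial, venous and fenestrated vessels, and the junction genes were not used for this. Cldn5, Ocln, Tjp1 and Esam had their highest mean in capillary-like cells. For Cldn5 and Ocln, in 11 of 11 libraries each was lower in arterial-like and in venous-like cells, with median ratios to the capillary-like level of 0.865 and 0.778 for Cldn5 and 0.793 and 0.7 for Ocln. Esam was lower in venous-like cells in 11 of 11 libraries (ratio 0.843). Tjp1 was lower in arterial-like cells in 11 of 11 libraries (ratio 0.636) and in venous-like cells in 5 of 11 (1.02). Cdh5 had the opposite order, higher in arterial-like cells in 11 of 11 libraries (ratio 1.52) and in venous-like cells in 10 of 11 (1.3). F11r was higher in arterial-like cells in 10 of 11 libraries (1.23) and lower in venous-like cells in 9 of 11 (0.911). Zones were defined from these cells, so these ratios are a description without a test.

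Fenestrated-like cells, marked by Plvap, the diaphragm protein of leaky vessels, stood apart by the least Cldn5, Ocln and Lsr. They reached 20 cells only in the 3 sham + WT libraries, with 24, 28 and 37 cells. Cldn5 there was 141 ± 69.0 CPM (SD, n = 3) and 4910 ± 804 CPM in capillary-like cells (n = 11). The capillary-like means pool all groups, and the fenestrated-like means are from sham + WT mice alone. Ocln was 12.8 ± 8.73 against 275 ± 41.3 CPM and Lsr 10.8 ± 7.34 against 287 ± 46.2 CPM, while Tjp1 was 275 ± 11.6 against 1160 ± 222 CPM. Cdh5 was 767 ± 15.3 CPM in fenestrated-like and 392 ± 43.8 CPM in capillary-like cells, so the adherens junction gene did not share the low level of the strand genes.

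**Figure D3:**
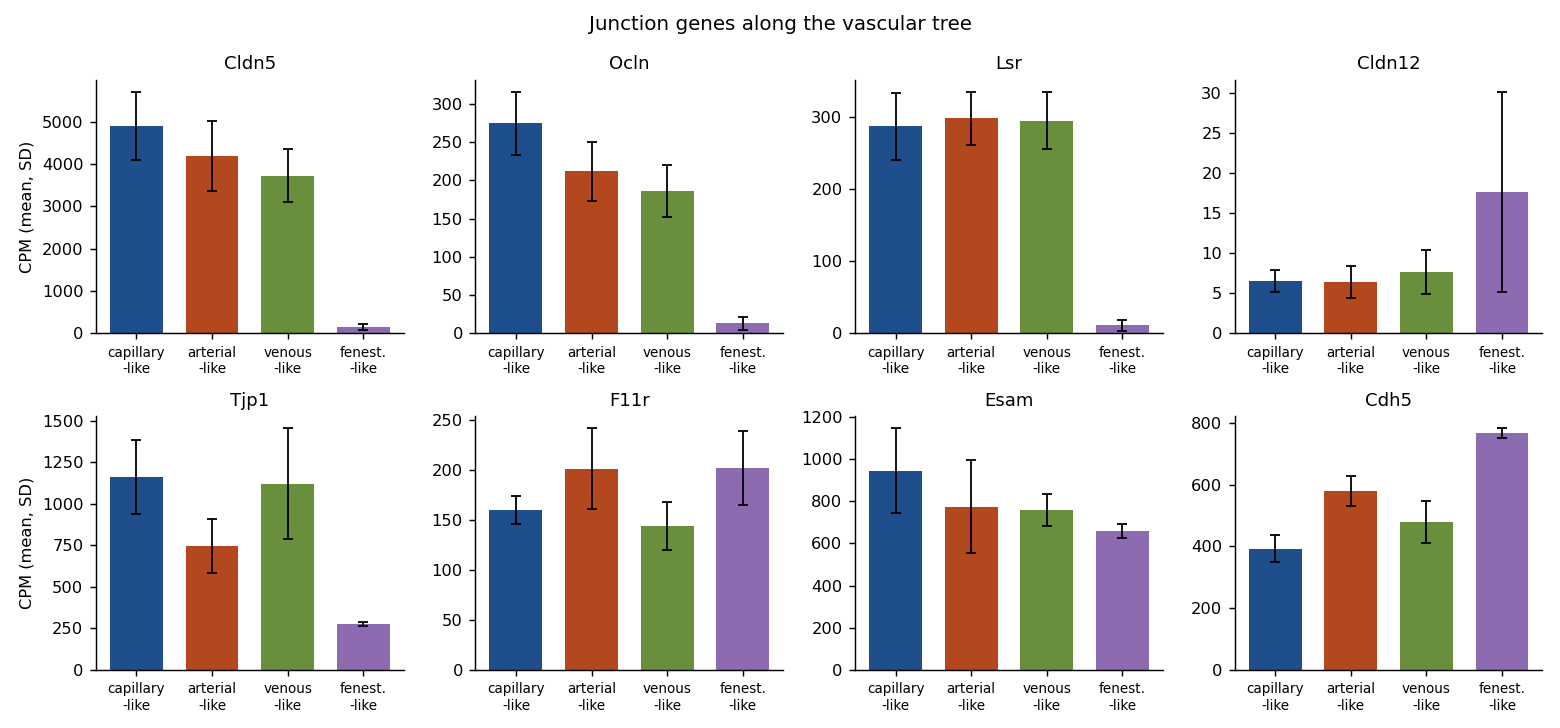
Levels of 8 junction genes in CPM (axes from 0) in capillary-like, arterial-like, venous-like and fenestrated-like endothelial cells, as means over 11 libraries (3 for fenestrated-like) with SD bars. Cldn5, Ocln and Lsr were near the bottom of the axis in fenestrated-like cells, at 141, 12.8 and 10.8 CPM, while Cdh5 was highest there, at 767 CPM.

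Zone shares differed between the libraries. Capillary-like cells were 56.6 to 60.4% of endothelial cells in sham + WT mice, 20.2 and 36.7% in MCAO/R + WT mice, 49.3 to 60.7% in sham + Lrg1-/- mice and 20.9 to 43.0% in MCAO/R + Lrg1-/- mice. A pair of subclusters with positive capillary scores stayed unnamed because arterial or venous markers were among their leading genes, a rule applied after the zones were seen. The subcluster with the venous markers Il1r1 and Lcn2 among its 10 leading genes, after Doc2b and Ccn2, had nearly equal venous and capillary scores (0.389 and 0.366) and held 32.5 and 35.2% of endothelial cells in MCAO/R + WT mice and 3.31 to 6.85% in all other libraries. The subcluster with the arterial markers Gkn3 and Efnb2 among its leading genes held 4.83 to 23.6%. Together with other unnamed cells, led by hemoglobin genes, Tubb6 and Apln in the larger subcluster, the unnamed share was 26.2 to 30.5%, 48.7 and 61.9%, 22.1 to 27.5% and 37.4 to 59.6% in the 4 groups. Within capillary-like cells alone, the calls for Cldn5 and Esam with MCAO/R in both genotypes, and for Tjp1 and Ocln between genotypes after MCAO/R, were also made, and the call for Tjp1 with MCAO/R in Lrg1-/- mice was not. The capillary-like cells pooled several subclusters, whose mix differed between groups. The one led by Sdk1 held 23.5 to 28.1% of endothelial cells in sham + WT mice and 1.43 and 1.68% in MCAO/R + WT mice. In Lrg1-/- mice it held 7.46 to 11.2% after sham surgery and 0.494 to 2.98% after MCAO/R. The part of this mix in the capillary-like values, and of the zone shares in the other values, was not tested.

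Outside the endothelium the 9 genes fell into those that were nearly confined to it and those shared with other cells, judged by the median share of the endothelial level in the same library. As a measure of free RNA, the 12 endothelial markers stood at 1.49 to 6.83% of their endothelial level in the other types. Cldn5 stood at 1.4 to 7.55% in the types shown, near the markers. Endothelial cells had the highest mean level for Cldn5 (4330 CPM), Ocln (224), Tjp1 (1040), Lsr (266), Cdh5 (463) and Esam (840). Their neighbours in the vessel wall shared Esam, which was at 50.3% of the endothelial level in pericytes (markers 2.34%) and at 27.5% in vascular smooth muscle (1.75%).

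Tjp1 was shared with several types, at 51.3% in fibroblasts (markers 2.0%), 47.2% in astrocytes (3.4%), 33.6% in pericytes, 28.9% in oligodendrocytes (1.7%) and 17.1% in microglia (1.49%). The fibroblast value rests on 3 libraries, and with cells thinned to 1000 UMIs its mean moved from 713 to 1740 CPM, above the endothelial mean. Ocln was at 40.1% in ependymal cells (5.03%) and 19.7% in choroid plexus epithelium (5.22%), where Lsr was at 13.5%. Both are epithelia that line the ventricles. F11r averaged 213 CPM in microglia, 160 ± 19.0 CPM in endothelial cells (SD, n = 11) and 153 CPM in red blood cells, but the order of the first 2 depended on the group. Microglia were above endothelial cells in all 6 sham mice and in 1 of the 5 MCAO/R mice. F11r was at 41.9% of the endothelial level in choroid plexus epithelium and 39.4% in monocytes. Cldn12 was highest in fibroblasts at 22.1 CPM, from 24 UMIs in 3 libraries, then in ependymal cells at 12.2 CPM, and was 7.25 CPM in endothelial cells, rank 7 of the types. Cgn was highest in choroid plexus epithelium at 8.69 ± 2.36 CPM (615 UMIs) and at 0.102 CPM in endothelial cells.

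**Figure D4:**
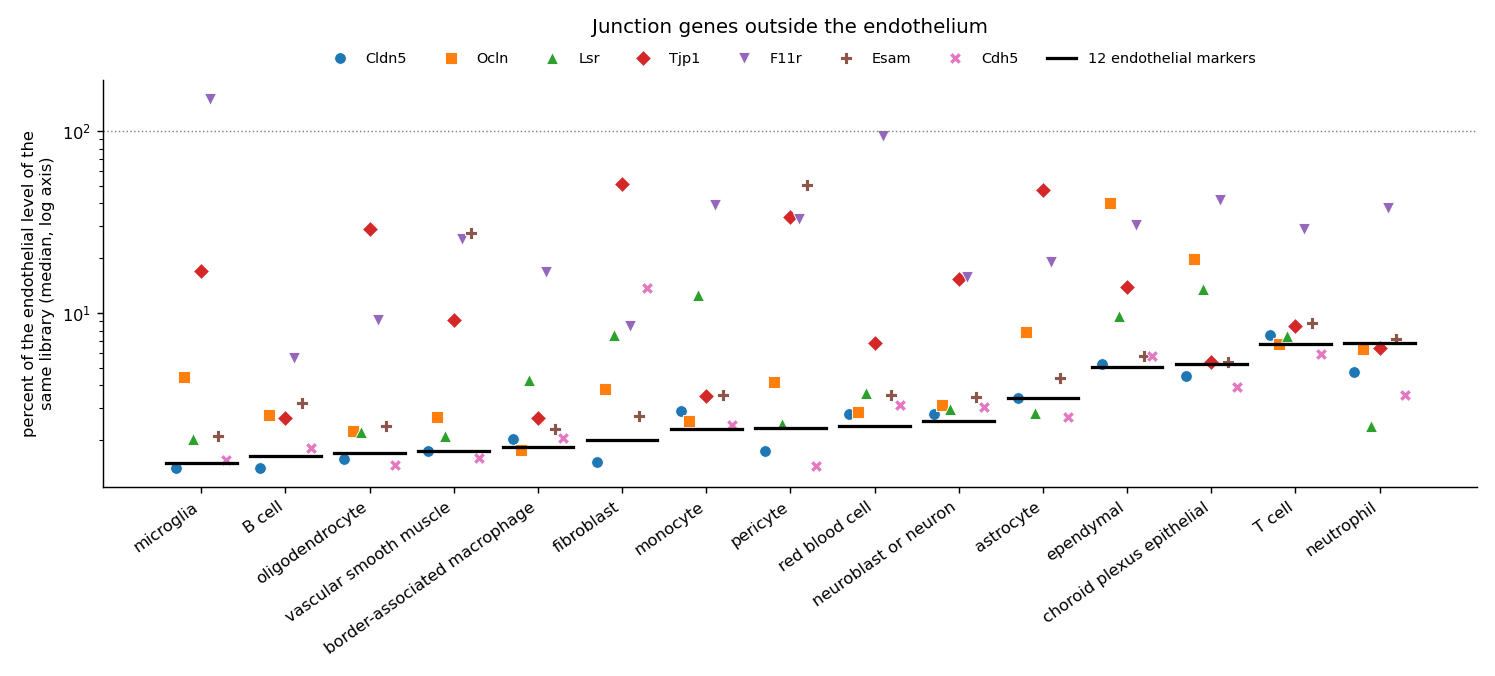
Level of 7 junction genes in 15 other cell types as a percent of the endothelial level in the same library (median over libraries, log axis), with the median of the 12 endothelial markers as a black line for each type. Tjp1 in fibroblasts and astrocytes (51.3 and 47.2%, the former from 3 libraries), Esam in pericytes (50.3%) and Ocln in ependymal cells (40.1%) lie far above the line, while Cldn5 stays near it.

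In the other cell types together, 5 of 87 tests of a junction gene were called from sham to MCAO/R in WT mice (8.04% of all gene tests in these types) and 8 of 94 in Lrg1-/- mice (9.83%). Between genotypes 9 of 92 were called after MCAO/R (14.1%) and 14 of 94 after sham surgery (10.2%). For the difference of the responses 0 of 87 were called (1.4%), with 1 by DESeq2.

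Microglia, the resident macrophages of the brain, had less F11r and Tjp1 after MCAO/R in both genotypes. F11r was 298, 298 and 288 CPM in sham + WT mice, 165 and 130 CPM in MCAO/R + WT mice, 239, 251 and 271 CPM in sham + Lrg1-/- mice and 135, 113 and 156 CPM in MCAO/R + Lrg1-/- mice. Tjp1 was 198, 241 and 247, then 135 and 123, then 188, 183 and 188, then 124, 96.5 and 109 CPM in the same groups. Every MCAO/R mouse lay below every sham mouse for both genes. F11r fell by 1.0 on the log2 scale in WT (SE 0.15, edgeR adjusted p = 0.000514) and 0.91 in Lrg1-/- mice (0.000261), and Tjp1 by 0.83 (0.0011) and 0.76 (0.000482). In microglia 21.5% of genes in WT and 35.8% in Lrg1-/- mice were called. Both falls were called under all 20 alternatives in each genotype, while the median log2 fold change of the endothelial markers there was -0.29 and -0.36. Microglial Ocln, at 7.11 to 15.8 CPM, fell by 0.83 in Lrg1-/- mice (edgeR adjusted p = 0.00222).

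Pericytes, the contractile cells around capillaries, had lower Tjp1 in Lrg1-/- mice under both surgeries. They reached 20 cells in 9 libraries, with 31 to 152 cells in the 4 Lrg1-/- libraries and 247 to 624 in the WT libraries. Pericyte Tjp1 was 482, 414 and 459 CPM in sham + WT mice, 624 and 764.5 CPM in MCAO/R + WT mice, 203 and 187 CPM in sham + Lrg1-/- replicates 1 and 2, and 184 and 250.5 CPM in MCAO/R + Lrg1-/- replicates 2 and 5. All 4 Lrg1-/- values lay below all 5 WT values. The log2 difference was -1.74 ± 0.20 after MCAO/R (edgeR adjusted p = 2.79e-05), called under all 20 alternatives, and -1.21 ± 0.21 after sham surgery (0.0023), where 15.8% and 5.28% of genes tested in pericytes were called. The call after sham surgery was lost with cells thinned to 1000 UMIs (-0.78, edgeR adjusted p = 0.304). Tjp1 rose by 0.62 with MCAO/R in WT pericytes (edgeR adjusted p = 0.0268, 5.3% of genes called), a call lost without MCAO/R + WT replicate 2 or without any of sham + WT replicates 1 to 3, and with the replicate block or thinned cells (0.55, 0.0604). The endothelial markers in pericytes had median log2 differences of 0.26, -0.66 and 0.38 in these 3 comparisons. Removal of the gene span trend is given here for endothelial cells only, and the part of gene span in Tjp1 of other cell types was not tested.

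In the choroid plexus epithelium, which makes the cerebrospinal fluid, Tjp1 was 52.9, 61.7 and 60.2 CPM in sham + WT mice and 89.6 and 77.7 CPM in MCAO/R + WT mice. It was 62.3, 80.7 and 80.0 CPM in sham + Lrg1-/- mice and 41.3, 32.6 and 41.3 CPM in MCAO/R + Lrg1-/- mice. The MCAO/R + Lrg1-/- mice lay below all others. Choroid plexus Tjp1 was near the level of free RNA, at 5.38% of the endothelial level beside 5.22% for the endothelial markers. It was above the marker percent in 6 of 11 libraries. MCAO/R + WT replicate 2 gave 26 of these cells. The difference between genotypes after MCAO/R was -1.14 (edgeR adjusted p = 0.00248, 25% of genes called), kept without each library in turn and lost with thinned cells (-0.97, 0.319), and the change with MCAO/R in Lrg1-/- mice was -0.95 (0.0108, 1.81% called), lost without sham + Lrg1-/- replicate 2 or with only the groups compared. The endothelial markers in these cells had medians of 0.05 and -1.0 in the same comparisons, and their part was not tested. Over the 12 other cell types tested after MCAO/R, Tjp1 was lower in Lrg1-/- mice in 11, with a median of -0.28. It was called in 3 (pericytes, choroid plexus epithelium and vascular smooth muscle at -0.45), beside 14.1% of all gene tests. After sham surgery it was lower in 8 of 12, with 2 called and a median of -0.15. These types come from the same mice and are no separate replicates. How many genes were lower in as many types was not counted. In endothelial cells, genes over 100 kb had a median of -0.19 after MCAO/R. The vascular smooth muscle call (edgeR adjusted p = 0.0434, 15.5% of genes called) was kept in 4 of the 11 fits that left out a library and was lost without either MCAO/R + WT mouse and with thinned cells (-0.65, 0.188).

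**Figure D5:**
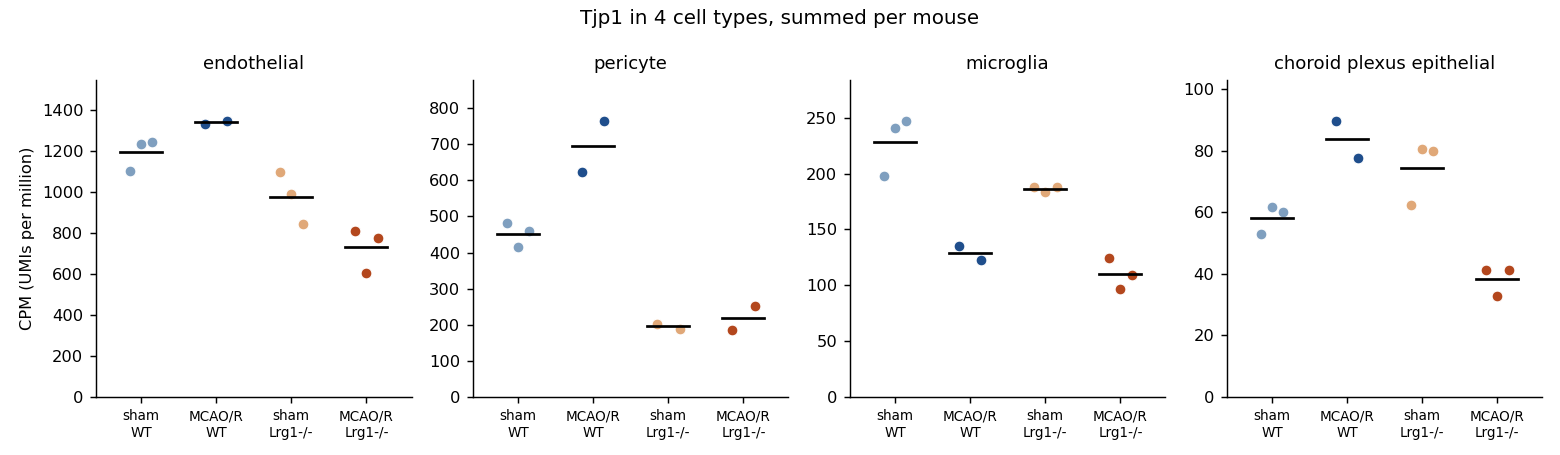
Tjp1 level in CPM (axes from 0, different for each panel) in endothelial cells, pericytes, microglia and choroid plexus epithelial cells, with 1 point per mouse with at least 20 cells and the group mean as a line. In endothelial cells, pericytes and choroid plexus epithelium the MCAO/R + WT mice were above the MCAO/R + Lrg1-/- mice, and in microglia both MCAO/R groups were at 96.5 to 135 CPM. The choroid plexus level was near that of free RNA, at 5.38% of the endothelial level beside 5.22% for the endothelial markers.

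Among 23 other tight junction genes, all tested in endothelial cells, 4 rose and 2 fell from sham to MCAO/R in WT mice, and 5 rose and 2 fell in Lrg1-/- mice. Over all genes tested 10.3% were called higher and 11.3% lower in WT, and 12% and 10.3% in Lrg1-/- mice. The balance in WT mice turned to 3 higher and 5 lower in capillary-like cells, and without single libraries the number called ran from 2 to 7 in WT and from 4 to 8 in Lrg1-/- mice. Pard3, a polarity scaffold of forming junctions, was 288, 333 and 303 CPM in sham + WT mice, 844.5 and 869.5 CPM in MCAO/R + WT mice, 288, 239 and 225 CPM in sham + Lrg1-/- mice and 268, 319 and 426 CPM in MCAO/R + Lrg1-/- mice. The MCAO/R + WT mice stood above all others, with a rise of 1.48 in WT (edgeR adjusted p = 4.11e-05) and a difference between genotypes after MCAO/R of -1.34 (0.000142), both called under every alternative. In Lrg1-/- mice with MCAO/R, Jam3 (JAM-C) rose by 1.09 and Magi1, a scaffold protein, by 0.81. With cells thinned to 1000 UMIs the Jam3 difference was 0.87 (edgeR adjusted p = 0.141), and both calls were lost with the marker gate on the margin (cells with a UMI of at least 4 endothelial markers and of 2 more than of any other type), where that of Jam3 was 0.39 (0.481). The largest change of this list with MCAO/R in Lrg1-/- mice was that of Cldn11, a rise of 1.54 (edgeR adjusted p = 0.00985). Patj and Pard6g fell there by 0.84 (0.0107) and 0.71 (0.0178). The Cldn11, Patj and Pard6g calls were also lost with this gate, and that of Cldn11 without sham + Lrg1-/- replicate 2. In the endothelial sums the oligodendrocyte markers were 309 to 776 CPM in MCAO/R + Lrg1-/- and 298 to 454 CPM in sham + Lrg1-/- mice. The part of free RNA in the Cldn11 rise was not tested. Between genotypes, 6 were higher and 5 lower after MCAO/R (13.5% and 12.8% of all genes) and 4 higher and 7 lower after sham surgery (6.44% and 8.91%). With the gene span trend removed the balance after sham surgery turned to 5 higher and 2 lower, and after MCAO/R 1 was higher and 4 lower in capillary-like cells. Without single libraries the number called ran from 7 to 11 after MCAO/R and from 6 to 11 after sham surgery. Magi3, a scaffold of the same family as Magi1, was 406 to 485 CPM in sham + WT mice and 194 to 211 CPM in sham + Lrg1-/- mice, a fall of 1.11 (edgeR adjusted p = 7.25e-05). The epithelial claudins Cldn1, Cldn2 and Cldn3 were higher in Lrg1-/- mice under both surgeries at levels of at most 3.79 CPM, where the choroid plexus markers were also higher, and the part of free RNA in these was not tested. Of these calls, Cldn3 after MCAO/R (edgeR adjusted p = 0.0375) was kept in 11 of 21 alternatives, and Cldn1 after sham surgery (0.0271) in 16 of 20, lost with the replicate block and without sham + WT replicate 1, sham + WT replicate 3 or sham + Lrg1-/- replicate 1.

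Adherens junction genes were tested for 20 of 21, of which 3 rose and 7 fell with MCAO/R in WT mice and 4 rose and 4 fell in Lrg1-/- mice, beside 10.3% and 11.3% of all genes in WT and 12% and 10.3% in Lrg1-/- mice. The largest change in WT mice was a fall of 2.46 for Pcdh12 (edgeR adjusted p = 0.000862), which ran from -3.88 to -1.98 over the alternatives. Ctnnb1, the gene of β-catenin, which binds cadherins and carries the Wnt signal, was 549, 558 and 588 CPM in sham + WT mice and 297 and 259 CPM in MCAO/R + WT mice, a fall of 1.02 (edgeR adjusted p = 8.62e-05) called under all 24 alternatives. In the Lrg1-/- groups it was 486.5, 567 and 550 CPM and 383, 339 and 298 CPM. Cdh13, T-cadherin, which has no intracellular domain, was 60.4, 65.9 and 61.9 CPM in sham + WT mice, 109 and 76.4 CPM in MCAO/R + WT mice, 50.8, 48.8 and 55.2 CPM in sham + Lrg1-/- mice and 166, 175 and 191 CPM in MCAO/R + Lrg1-/- mice. Its MCAO/R + Lrg1-/- values exceeded all others, with a rise of 1.78 in Lrg1-/- mice (edgeR adjusted p = 8.47e-06), made under all 23 alternatives. Nectin2, an adhesion molecule, rose in both genotypes, by 0.72 (edgeR adjusted p = 0.00283) and 0.99 (0.000559), of which the first was lost in capillary-like cells (0.51, 0.0518) and the second with thinned cells (0.63, 0.169). After sham surgery 6 of the 20 were lower in Lrg1-/- mice and none higher, among them Ctnnd1 (p120-catenin) at -0.66 and Rap1b, a small GTPase of junction assembly, at -0.64, and after MCAO/R 2 were higher and 5 lower, beside 6.44% and 8.91% of all genes after sham surgery and 13.5% and 12.8% after MCAO/R. In capillary-like cells the balance after MCAO/R turned to 3 higher and 2 lower. With the gene span trend removed, the numbers lower were 2 after sham surgery and 2 after MCAO/R. For the responses of the genotypes, 1 tight junction gene was called higher and 1 lower and 1 adherens junction gene higher, beside 1.68% and 1.56% of all genes.

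Gap junction genes, which form channels between cells, were tested for 5 of 6, and 2 rose with MCAO/R in each genotype, beside 10.3% of all genes in WT and 12% in Lrg1-/- mice. Without single libraries the number called ran from 1 to 2 in WT and from 2 to 4 in Lrg1-/- mice, and between genotypes after MCAO/R from 1 to 3, where 1 was called. With the replicate block 1 was called in WT mice. The 1 gene called between genotypes after MCAO/R was lower in Lrg1-/- mice, beside 12.8% of all genes called lower. Gjc1 (connexin 45) was 119, 136 and 130 CPM in sham + WT mice, 287 and 329.5 CPM in MCAO/R + WT mice, 115, 103 and 101 CPM in sham + Lrg1-/- mice and 145, 163 and 205 CPM in MCAO/R + Lrg1-/- mice. It rose by 1.27 in WT (edgeR adjusted p = 2.36e-05) and 0.68 in Lrg1-/- mice (0.00202), and after MCAO/R was lower in Lrg1-/- mice by 0.85 (0.000646). Gja1, another connexin gene, rose by 1.13 in Lrg1-/- mice (edgeR adjusted p = 0.00619) and by 0.79 in WT mice (0.043), where the call was kept in 4 of the 11 fits that left out a library and lost with the replicate block.

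Wnt signalling from neighbouring brain cells is known to keep brain endothelium in its barrier state. Of 26 Wnt and barrier regulators, 2 rose and 9 fell with MCAO/R in WT mice and 1 rose and 17 fell in Lrg1-/- mice, with median log2 fold changes of -0.29 and -0.56. Over all genes tested 10.3% were called higher and 11.3% lower in WT mice, and 12% and 10.3% in Lrg1-/- mice. The list was chosen with earlier results of these data known, so the regulator counts are no test of the list against these shares. In capillary-like cells 2 rose and 11 fell in WT mice, and 1 rose and 15 fell in Lrg1-/- mice. Without single libraries the number called ran from 5 to 12 in WT and from 14 to 18 in Lrg1-/- mice. With the replicate block 2 rose and 4 fell in WT and 15 fell in Lrg1-/- mice. The summed endothelial markers also fell with MCAO/R in both genotypes, and their part in these counts was not tested. Notum fell by 1.14 in WT mice (edgeR adjusted p = 0.00776), a call lost with the replicate block, and by 1.78 in Lrg1-/- mice (0.000601). Axin2, a feedback target of Wnt, was 66.6, 79.5 and 82.4 CPM in sham + WT mice, 40.9 and 52.5 CPM in MCAO/R + WT mice, 71.3, 85.5 and 69.9 CPM in sham + Lrg1-/- mice and 35, 25.2 and 25.9 CPM in MCAO/R + Lrg1-/- mice. All MCAO/R mice lay below all sham mice, with falls of 0.71 (edgeR adjusted p = 0.00547) and 1.42 (8.92e-05), of which the first was lost without MCAO/R + WT replicate 1 and with the marker gate on the margin. Fzd6, a Wnt receptor, fell by 1.25 in WT (2.2e-05) and 0.99 in Lrg1-/- mice (0.000128), and Foxq1, a transcription factor, by 0.81 and 0.90, of which the first was lost with the marker gate on the margin (edgeR adjusted p = 0.0514).

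After MCAO/R 11 of the 26 regulators were lower in Lrg1-/- than in WT mice and none higher, beside 12.8% and 13.5% of all genes tested, with a median of -0.37. In capillary-like cells 1 was higher and 8 lower, with a median of -0.21. Without single libraries the number called ran from 6 to 12, and with the replicate block it was 6. The summed endothelial markers were also lower in MCAO/R + Lrg1-/- mice, at 14570 to 17150 CPM against 17510 to 19680 CPM in MCAO/R + WT mice, and their part was not tested. Nkd1, another feedback target, was lower by 1.36 (edgeR adjusted p = 0.000116), Lrp5, a co-receptor, by 0.90 (0.000734), and Fzd4, the receptor for norrin, by 0.68 (0.00081). Apcdd1 was lower by 1.07 (edgeR adjusted p = 0.00845), a call lost with only the groups compared. Fzd4 alone among the regulators rose in WT mice by more than 1 on the log2 scale, from 75.8 to 82.7 CPM in sham + WT mice to 145 and 182 CPM. After sham surgery 1 regulator was higher and 3 lower in Lrg1-/- mice, beside 6.44% and 8.91% of all genes, and the number called ran from 1 to 7 without single libraries.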

How the data were processed

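The deposited files hold UMI counts for each gene in each barcode, not normalized, made by the authors with cellranger 7.0.1 per the file headers. The paper's methods state another version, the submitters' processing notes list Cell Ranger, STAR and mm10, and whether intronic reads were counted is not given in the sources used here. Barcodes with over 500 genes, over 1000 UMIs and under 25% mitochondrial UMIs were kept (132437), and the 6% with the highest simulated doublet scores were removed per library, which left 124491 cells from libraries of 37159497 to 171813031 UMIs. Cells were joined to 3 neighbours per mouse on 15 principal components of 2000 variable genes and clustered with the Leiden algorithm at resolution 2.0 (Python 3.11.15, igraph 0.11.9). The junction genes were left out of the variable genes and of the markers that named the clusters. Clusters that met no marker rule stayed unnamed (23072 cells). Among them was a cluster of 6907 cells led by Ly6c1 and Cldn5, so some cells with endothelial RNA lay outside the endothelial sums. Unnamed cells numbered 234 to 1621 in WT libraries, 931 to 1054 in sham + Lrg1-/- and 1161 to 14519 in MCAO/R + Lrg1-/- libraries. The part of this exclusion in the results was not tested.

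For each cell type, the counts of a mouse's cells were added up where it had at least 20, TMM normalized, filtered with filterByExpr and fitted over all groups with edgeR 4.0.16 (limma 3.58.1, R 4.3.3), since the MCAO/R + WT group has 2 mice. Of genes changed by 1 and 2 on the log2 scale in simulated endothelial counts of MCAO/R + Lrg1-/- and MCAO/R + WT mice (16202 genes), 48% and 90% were called, with 0.0625% of unchanged genes. Zones and shares were described without tests. Shares of cells cover counting error only. DESeq2 1.42.0 and other settings served as alternatives. Libraries shared 5 to 146 barcodes per pair, at most 1.15%. Replicates differed beyond counting noise, with a chi-square per degree of freedom of 5.62 to 33.9. Same-numbered mice of different groups had correlations of deviations from -0.408 to 0.0806, and the numbers were not taken as pairs. These correlations cannot exclude pairs, since the deviations of 2 mice from their mean mirror each other. The replicate block adds a term for each replicate number to the fit. Replicate 3 occurs only in the sham + WT group, so the block fits that mouse on its own.

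The junction genes, gene lists and markers were chosen with earlier results of these data known. Named list genes were taken from those called in endothelial cells, at most 5 per list and comparison by size of change, and only some of these are named in the text. Pals1 was not matched to a symbol. Imaging and protein measurements were not analysed here.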

Additional observations from a re-analysis of the deposited data

Results flagged for a closer look

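The genotypes' responses to MCAO/R in endothelial cells differed, by the interaction term of the edgeR fit, for 4 genes of the other junction and regulator lists, beside 3.24% of all genes tested. Without single libraries the 2 tight junction genes among them became 1 to 3, the 1 regulator 0 to 7, and the 1 adherens junction gene remained a count of 1. In capillary-like cells the counts were 0, 4 and 0, and with the block 0, 0 and 1. The log2 difference of the responses (Lrg1-/- minus WT) was 1.22 for Cdh13 (edgeR adjusted p = 0.00402), 1.47 for Jam3 (0.0116), -1.05 for Pard3 (0.0245) and -0.68 for Fzd4 (0.029). Without each library in turn the Cdh13 and Jam3 differences passed in 11 of 11 fits, Pard3 in 4 of 11 and Fzd4 in 3 of 11. Pard3 was lost without any of the 3 sham + WT mice, MCAO/R + WT replicate 2, sham + Lrg1-/- replicates 1 and 2, or MCAO/R + Lrg1-/- replicate 2, and Fzd4 without these or sham + Lrg1-/- replicate 5. Among capillary-like cells the difference was -0.24 for Cdh13 (edgeR adjusted p = 0.788), with a rise of 2.42 in Lrg1-/- mice there, 0.90 for Jam3 (0.247), -0.77 for Pard3 (0.0781) and -0.69 for Fzd4 (0.0385). With cells thinned to 1000 UMIs, Jam3, Cdh13 and Fzd4 did not pass, and with the replicate block Jam3, Pard3 and Fzd4 did not. With the marker gate on the margin none of the 4 passed, at edgeR adjusted p of 0.87 for Jam3, 0.596 for Pard3, 0.435 for Cdh13 and 0.673 for Fzd4. Jam3 was read at 7.94 to 21.5 CPM.

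The endothelial Tjp1 values after MCAO/R lay above all sham values in WT mice and below all sham values in Lrg1-/- mice, and 2.43% of all genes tested had such separate ranges in either order. The difference in WT mice did not pass (0.17, edgeR adjusted p = 0.449). The difference of -0.59 did not pass with edgeR (adjusted p = 0.118), and ranged from -0.68 to -0.30 over the alternatives. It passed with DESeq2 (adjusted p = 0.0368) and with the gene span trend removed (-0.67, edgeR adjusted p = 0.045), and in capillary-like cells it was -0.30 (0.455). Red blood cell and choroid plexus markers moved with genotype in the same libraries, and their part in the differences was not tested.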

How the results depend on the processing

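The 2 junction genes called in endothelial cells from sham to MCAO/R in WT mice became 1 without a filter on low counts, 1 with doublets kept, 0 with the replicate block, 0 with the marker gate on the margin, and 0 to 2 without single libraries. The 3 called in Lrg1-/- mice became 1 with the replicate block, 1 with only the groups compared, 0 with the gate on the margin, and 1 to 4 without single libraries. The 2 called between genotypes after MCAO/R were 2 without each library and 1 with the gene span trend removed. After sham surgery the count of 0 became 1 without the filter, which was Cgn, and 3 with the gate on the margin. The count of 0 for the responses became 1 with DESeq2 and 1 with the span trend removed. In the other cell types the count of 5 in WT mice became 3 with the replicate block, 3 with thinned cells and 2 to 7 without single libraries. The 8 in Lrg1-/- mice became 15 with DESeq2, 30 without the filter and 6 to 17. After MCAO/R the 9 between genotypes became 15 without the filter, 4 with only the groups compared, 2 with thinned cells and 2 to 11. After sham surgery the 14 became 22 with DESeq2, 29 without the filter, 2 with the replicate block, 3 with thinned cells and 3 to 20. The 0 for the responses became 1 with DESeq2, 5 without the filter and 0 to 3. Thinning moved the fibroblast mean of Tjp1 from 713 to 1740 CPM, and Cldn12 from 7.25 to 8.66 CPM in endothelial cells and from 22.1 to 27.2 CPM in fibroblasts. Cdh5 in pericytes after MCAO/R, higher in Lrg1-/- mice by 2.01 (edgeR adjusted p = 0.016), ranged from -0.18 to 2.35 without single libraries, the lowest without MCAO/R + Lrg1-/- replicate 2 and turned in sign. The difference of the Cdh13 responses in endothelial cells turned from 1.22 to -0.24 in capillary-like cells. The other tight junction genes called numbered 6 in WT mice and 2 with the replicate block. The 11 called between genotypes after MCAO/R became 5 in capillary-like cells, 6 with the span trend removed and 6 with the block, and the 11 after sham surgery became 7, 7 and 3. The 11 Wnt and barrier regulators called in WT mice, and the 11 between genotypes after MCAO/R, each became 6 with the block, and the 4 called after sham surgery became 7 in capillary-like cells, 1 with the span trend removed and 0 with the block. Same-numbered mice were not taken as pairs, and the block moved no other count of the junction genes in endothelial cells by over 1.5 times. The causes were not tested.

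The gate on the margin and the span trend were added after the data were seen. The planned marker gate left too few cells in Lrg1-/- libraries for any comparison with them. Where a fit left 1 mouse in a group, that mouse was assumed to vary like the others. The smallest libraries have 302 and 335 endothelial cells, Cldn12 and Cgn are limited by depth, and the pericyte values of Lrg1-/- mice rest on 2 mice per group.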

Other observations

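In the sham groups, junction genes of endothelium were called higher in Lrg1-/- mice in cell types where the endothelial markers moved the same way. Cldn5, the endothelial claudin, was higher in choroid plexus epithelium by 1.98, in ependymal cells by 1.99 and in neuroblasts or neurons by 2.85 on the log2 scale (edgeR adjusted p = 0.0142, 0.0319 and 0.0156). The medians of the 12 endothelial markers there were 0.76, 1.01 and 1.95, and 21.2%, 5.48% and 10.3% of genes tested were called in these types. Lsr was higher in the same 3 types by 0.77, 2.17 and 2.40. All of these were lost without at least 1 library, among them a sham + WT mouse in each case, and the part of free RNA in them was not tested.

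F11r, the JAM-A gene, was higher in oligodendrocytes of Lrg1-/- mice by 1.93 after MCAO/R (edgeR adjusted p = 0.00711) and by 1.54 after sham surgery (0.0257), where 28.9% and 11.8% of genes were called. The first was lost without MCAO/R + WT replicate 2 (0.0858) and the second without sham + WT replicate 2 or 3 or sham + Lrg1-/- replicate 2 or 5, with the replicate block, with thinned cells and with doublets kept (0.80, 0.08). F11r was also called higher in Lrg1-/- mice after MCAO/R in neuroblasts or neurons (2.23, edgeR adjusted p = 0.0302) and border-associated macrophages (1.53, 0.0315). There 5.09% and 21.5% of genes were called, and both calls were lost with only the groups compared. Of the 12 other cell types, F11r was lower in 7. Its level was 18.0 CPM in oligodendrocytes and 153 CPM in the red blood cell cluster, and the part of free RNA was not tested. In the red blood cell cluster F11r fell by 1.42 with MCAO/R in Lrg1-/- mice (edgeR adjusted p = 0.00184, 11.9% of genes called). The median of the endothelial markers there was -1.16. Microglia were the second-best type of this cluster by marker score (1.256), and microglial F11r changed by -0.91 in the same comparison. The part of microglial RNA was not tested.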
